A study of Rattus norvegicus with 6 samples.

Results

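The RT1 class I genes of the rat major histocompatibility complex (MHC) were examined in whole blood of rats after middle cerebral artery occlusion (MCAO) or a sham operation. They comprised 9 genes, RT1-T24-4, RT1-T24-3, RT1-EC2, RT1-CE10, RT1-CE12, RT1-CE5, RT1-A1, RT1-A2 and RT1-S2, and were found through the gene symbols of the array annotation together with 4 probe sets named singly. This gave 15 of the 31042 probe sets on the array, after 57 control probe sets had been left out. The genes were chosen by measured values of these same rats, namely the MCAO-sham contrast and the spread between arrays, so their differences, calls and correlations are given as a description with no test.

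MHC class I molecules consist of a polymorphic heavy chain bound to beta-2 microglobulin, and they present peptides from inside the cell to CD8+ T cells and to receptors of natural killer (NK) cells. In the rat the classical heavy chains are encoded in the RT1-A region, whereas the RT1-C/E/M regions hold a large family of nonclassical heavy chain genes. The number and the sequence of these genes differ between rat haplotypes, and nucleated blood cells express class I at their surface as a rule. Sprague-Dawley is an outbred stock, so that rats of this stock need not share an RT1 haplotype.

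The MCAO group comprised 3 male Sprague-Dawley rats of 8 weeks, in which a coated thread closed the origin of the middle cerebral artery and was later withdrawn, and the sham group comprised 3 male Sprague-Dawley rats of the same age that received an uncoated thread. Heart blood was collected 24 h after reperfusion in both groups, and the MCAO rats had been selected from a larger group by infarct size. One GeneChip Rat Genome 230 2.0 Array was hybridized per rat. The deposited log2 values come from DFW (Distribution Free Weighted), a summary that gives each probe a weight and shrinks the spread between arrays by very unequal amounts, so differences are given as log2 differences on the DFW scale and not as fold changes.

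Of the 15 probe sets, 9 carried 1 gene symbol, 5 were shared by several class I genes, and 1 had no symbol in the annotation. The last is called RT1-EC2 here after the study's naming. RT1-T24-4, RT1-T24-3, RT1-EC2, RT1-CE10, RT1-CE12 and RT1-CE5 had a probe set of their own (RT1-CE5 had 5, told apart by the suffix of their names), RT1-A1 and RT1-A2 were represented by shared probe sets alone, and RT1-S2 had no probe set. The names of 6 of the 15 end in _x_at, the suffix of probe sets with probes that can also hybridize to other transcripts. Among them are the probe sets of RT1-T24-4, RT1-CE10 and RT1-CE12. Values of single probes were not analysed here, and whether a value reflects the named gene, a near-identical class I gene or an allele that matches the probes poorly was not tested.

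In the GRCr8 reference, which is a genome of another rat strain, the genes lie on chromosome 20 in the order RT1-S2, RT1-T24-4, RT1-T24-3, RT1-CE12, RT1-CE10, RT1-CE5, RT1-A2 and RT1-A1, and RT1-EC2 was not matched by symbol. Promoter windows of 300 bases (250 before and 50 after the start) were found for 8 of the 9 genes in RefSeq. Those of the CE genes are shown because RT1-CE10 and RT1-CE12 moved together over the rats while most probe sets of RT1-CE5 hardly moved, and those of the T24 genes because 2 nearby genes followed different patterns. Capitals mark matches, on either strand, to motifs of class I promoters: GGGATTCCC (a kappa B site), CCAAT (the box bound by NF-Y), TGACG (the core of a cyclic AMP response element) and GAAA followed by any 2 bases and a further GAAA (an interferon-stimulated response element).
RT1-CE10 (chr20:3384930-3385229, minus strand): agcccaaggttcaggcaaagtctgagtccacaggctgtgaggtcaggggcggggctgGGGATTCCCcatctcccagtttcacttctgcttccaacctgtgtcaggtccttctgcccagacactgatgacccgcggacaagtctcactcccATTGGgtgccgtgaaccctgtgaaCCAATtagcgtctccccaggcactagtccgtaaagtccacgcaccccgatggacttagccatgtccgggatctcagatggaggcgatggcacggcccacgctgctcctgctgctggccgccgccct
RT1-CE12 (chr20:3347176-3347475, minus strand): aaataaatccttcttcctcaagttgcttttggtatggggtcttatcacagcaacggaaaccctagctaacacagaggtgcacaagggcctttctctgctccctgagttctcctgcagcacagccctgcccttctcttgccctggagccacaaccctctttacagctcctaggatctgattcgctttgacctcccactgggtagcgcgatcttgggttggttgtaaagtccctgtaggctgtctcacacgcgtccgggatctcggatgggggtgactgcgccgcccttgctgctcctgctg
RT1-CE5 (chr20:3484041-3484340, minus strand): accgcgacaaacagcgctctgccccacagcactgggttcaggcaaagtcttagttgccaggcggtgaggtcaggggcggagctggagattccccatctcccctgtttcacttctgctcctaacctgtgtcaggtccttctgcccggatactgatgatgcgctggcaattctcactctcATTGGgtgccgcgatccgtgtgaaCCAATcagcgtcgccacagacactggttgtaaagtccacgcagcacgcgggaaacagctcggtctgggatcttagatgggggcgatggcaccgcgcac
RT1-T24-4 (chr20:2689083-2689382, plus strand): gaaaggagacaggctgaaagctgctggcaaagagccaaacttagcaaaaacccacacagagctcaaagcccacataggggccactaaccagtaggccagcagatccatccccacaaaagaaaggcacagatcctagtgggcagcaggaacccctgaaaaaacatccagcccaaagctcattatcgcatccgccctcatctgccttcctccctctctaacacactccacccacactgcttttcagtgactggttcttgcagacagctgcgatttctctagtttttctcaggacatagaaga
RT1-T24-3 (chr20:2722875-2723174, plus strand): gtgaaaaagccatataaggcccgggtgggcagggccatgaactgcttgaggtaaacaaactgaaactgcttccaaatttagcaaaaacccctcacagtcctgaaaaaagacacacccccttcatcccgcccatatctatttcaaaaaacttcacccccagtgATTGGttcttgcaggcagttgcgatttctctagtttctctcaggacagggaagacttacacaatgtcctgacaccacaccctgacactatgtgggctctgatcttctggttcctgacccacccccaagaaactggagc
GGGATTCCC was found in 3 of the 8 promoters (RT1-CE10, RT1-A2 and RT1-A1), against 0.365% of 33469 rat promoters of the same length. CCAAT was found in 5 of the 8 (37.5% of all), TGACG in 2, RT1-A2 and RT1-A1 (21.2%), and the GAAA motif in 1, RT1-S2 (3.92%), and no matches of different motifs overlapped. The windows of RT1-CE12 and RT1-T24-4 held none of these motifs. The RT1-CE10 window was 73.5% identical to that of RT1-A2, 69.8% to that of RT1-CE5 and 50.4% to that of RT1-CE12, and the 2 T24 windows were 48.3% identical to each other. These are reference sequences and not those of the rats measured, and a match is a description of letters only.

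The 15 probe sets fell into 5 whose values ranged widely over the 6 rats and 10 that hardly varied. A range of at least 0.01 was seen in 5 of the 15, against 0.541% of all probe sets, and the median range of all probe sets was 6.55e-06. RT1-T24-4 had the largest range of all probe sets on the array, 3.11, and RT1-EC2 the next, 0.36. RT1-T24-3, RT1-CE12 and RT1-CE10 ranged over 0.072, 0.072 and 0.070. The other 10 had ranges between 7.53e-06 and 0.000646. The rule drew on the spread between arrays, so nothing is read from the number of wide members.

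**Figure D1:**
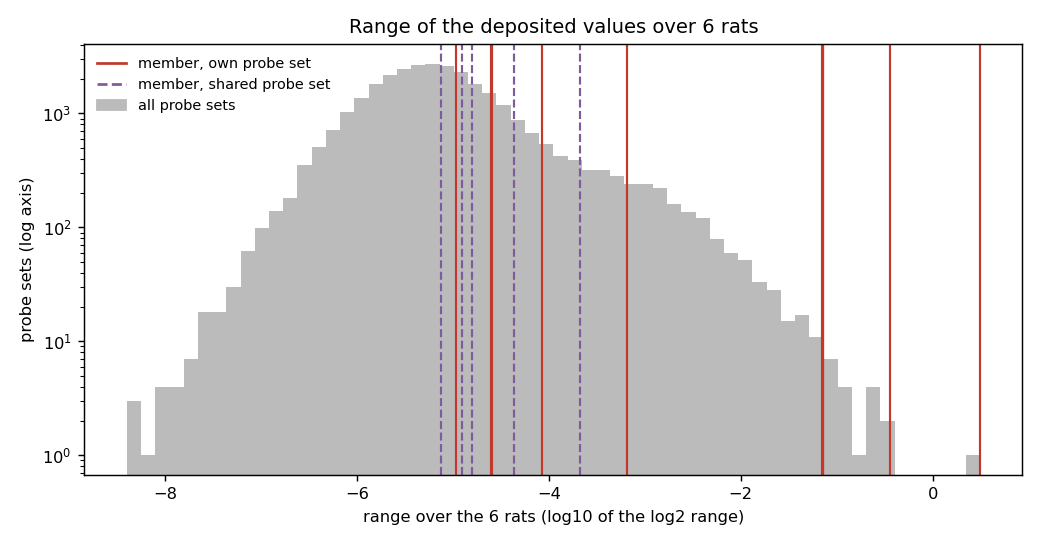
Histogram of the range over the 6 rats of all probe sets (x axis, log10 of the range in log2 units; y axis, number of probe sets on a log axis; 1 probe set with a range of 0 is left out), with lines at the 15 RT1 class I probe sets, solid for those with a probe set of their own and dashed for shared ones. RT1-T24-4 at a range of 3.11 and RT1-EC2 at 0.36 lie at the right end, and 10 probe sets lie below 0.001.

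Rank Products, which ranks the differences of the 9 MCAO-sham array pairs and was used at a false discovery rate (FDR) under 0.05, called 4 of the 15 lower in the MCAO group (RT1-EC2, RT1-CE10, RT1-CE12 and RT1-T24-3), against 0.612% of all probe sets. It called 1 higher, RT1-T24-4, against 0.135% of all. In the same fit the FDR of RT1-T24-4 was 0.0033 for higher and 0.0515 for lower, so that it narrowly missed a call in the other direction. The other 10 were not called. Since the genes were chosen on this contrast, nothing is read from these counts. In whole blood, fewer cells of a type and less RNA per cell cannot be told apart. In none of the 5 called probe sets were the groups separated. None of them was called after sham rat 3 was left out, and without sham rat 2 only RT1-CE10 and RT1-T24-4 were.

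RT1-T24-4, a nonclassical class I gene, differed most between single rats. Its probe set had values of 7.863, 7.673 and 8.689 in the MCAO rats, against 7.890, 7.965 and 5.583 in the sham rats. Sham rat 3 alone was low, MCAO rat 3 was the highest, and the other 4 rats of both groups lay between 7.673 and 7.965. The gap between sham rat 3 and the next rat was 2.09, or 67.3% of the range, and the value of sham rat 3 lay near the array medians of 5.564. MCAO rats averaged 8.07 ± 0.54 and sham rats 7.15 ± 1.35 (SD, n = 3 each), and the log2 difference was 0.93 (SE 0.79). Of the 9 differences between an MCAO and a sham rat, 5 were above 0 and 4 below, and the 2 groups overlapped.

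The MCAO-sham difference of RT1-T24-4 therefore has to be read apart from the pattern of single rats. Without sham rat 3 it was 0.15, and without MCAO rat 3 it was 0.62 but Rank Products called the probe set lower in the MCAO group. A probe set was taken as split when its range was at least 0.1 and the widest gap between neighbouring rats was at least 60% of the range. RT1-T24-4 and RT1-EC2 were 2 of the 4 split probe sets on the array, which is 0.0129% of all. The others were Ctrb1, chymotrypsinogen, with MCAO rat 2 alone high, and Ifi27, an interferon-induced gene, with MCAO rat 3 alone high, so that no other split probe set followed the rats as either class I gene did. Ctrb1 was named after its values were seen.

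RT1-T24-3, which lies near RT1-T24-4 in the reference, had values of 6.432, 6.432 and 6.505 in the MCAO rats and 6.445, 6.468 and 6.443 in the sham rats. MCAO rat 3 was the highest, as it was for RT1-T24-4, and the other MCAO rats lay below every sham rat. MCAO rats averaged 6.456 ± 0.042 and sham rats 6.452 ± 0.014 (SD, n = 3 each). The log2 difference was 0.0045 (SE 0.024), above 0, although Rank Products called the probe set lower, with 6 of the 9 differences below 0. Such a disagreement occurred in 3 of the 232 calls on the array. The difference was -0.020 without MCAO rat 3, -0.00011 without sham rat 3, 0.0010 without sham rat 1, 0.013 without sham rat 2 and 0.017 without MCAO rat 1 or 2.

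The 2 T24 genes agreed in the order of 5 of the rats. At both probe sets MCAO rat 2 was below MCAO rat 1, then followed sham rat 1, sham rat 2 and MCAO rat 3, and the genes parted at sham rat 3, which was the lowest for RT1-T24-4 and lay between MCAO rat 1 and sham rat 1 for RT1-T24-3. Pearson's r over the 6 rats was 0.50 and Spearman's rho 0.83, and without MCAO rat 3 r was 0.13. A further probe set, which the annotation assigns to both T24 genes, also had sham rat 3 as the lowest, but its whole range was 7.53e-06.

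**Figure D2:**
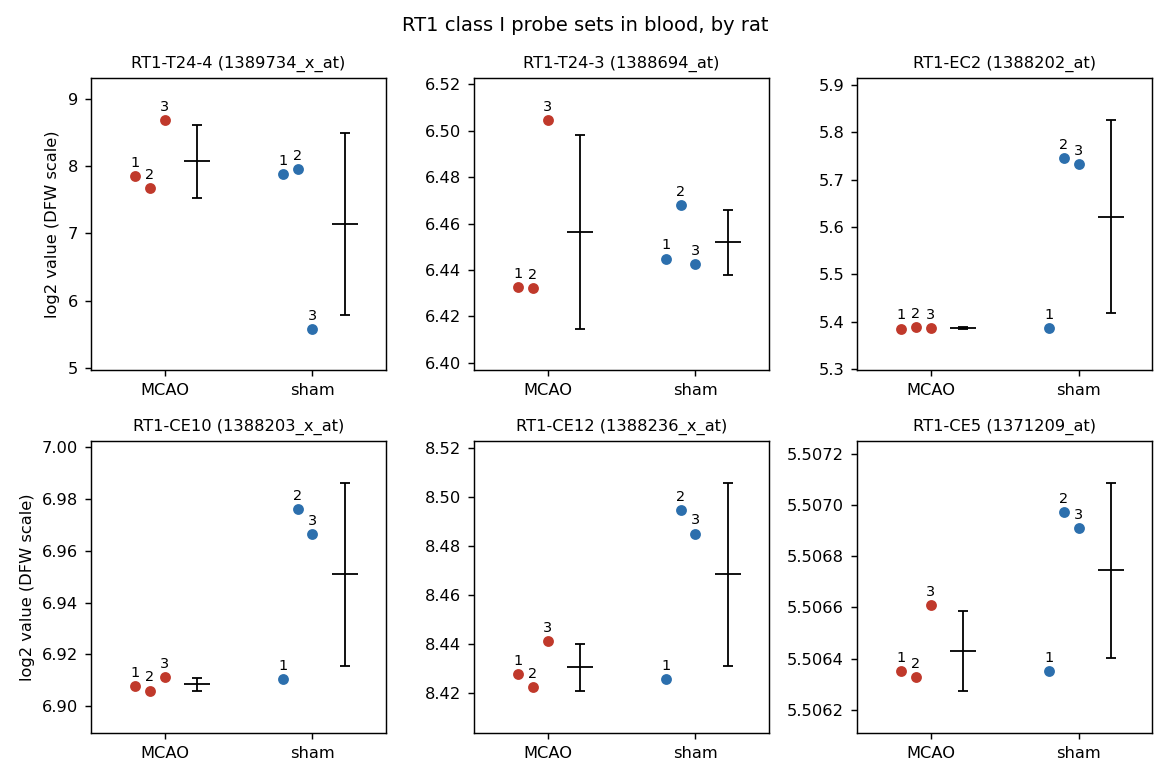
Log2 values (DFW scale, y axis) of 6 RT1 class I probe sets in the MCAO rats and the sham rats, where digits give the rat's number and bars the group mean with its SD (n = 3); each panel has its own y axis, cut above 0. Sham rat 3 alone is low for RT1-T24-4 at 5.583, MCAO rat 3 is highest for both T24 genes, and sham rats 2 and 3 are highest for RT1-EC2, RT1-CE10, RT1-CE12 and the RT1-CE5 probe set, with sham rat 1 near the MCAO rats.

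RT1-EC2, a nonclassical class I gene, showed an on/off pattern that divided the sham group. Its probe set had values of 5.385, 5.389 and 5.387 in the MCAO rats, against 5.387, 5.745 and 5.734 in the sham rats. Sham rats 2 and 3 were high, and the other 4 rats, sham rat 1 included, lay within 0.0039 of each other. The values of these 4 rats lay below the array medians of 5.564. The gap between these 4 and sham rats 2 and 3 was 0.34, or 95.8% of the range, and sham rat 1 differed from the mean of the MCAO rats by -0.00046. The log2 difference of the groups was -0.23 (SE 0.11), where MCAO rats averaged 5.387 ± 0.0020 and sham rats 5.622 ± 0.20 (SD, n = 3 each). It was -0.35 without sham rat 1. It thus rested on sham rats 2 and 3, and 7 of the 9 differences were below 0.

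RT1-CE10, also a nonclassical gene, followed the same division at a smaller scale. Its values were 6.908, 6.906 and 6.911 in the MCAO rats, against 6.911, 6.976 and 6.966 in the sham rats. Sham rats 2 and 3 were again the highest, with a gap of 78.8% of the range, and sham rat 1 lay within the MCAO rats. The log2 difference was -0.043 (SE 0.019), and 8 of the 9 differences were below 0. The study's naming gives this probe set to RT1-EC2 as well, whereas the annotation gives RT1-CE10, so whether the RT1-EC2 and RT1-CE10 probe sets measure separate transcripts was not tested.

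RT1-CE12 had values of 8.428, 8.423 and 8.441 in the MCAO rats, against 8.426, 8.495 and 8.485 in the sham rats. Sham rats 2 and 3 were the highest, with a gap of 60.9% of the range. The other 4 rats spread over 0.019 with MCAO rat 3 at the top, a wider spread than the 0.0052 of the same 4 rats for RT1-CE10. The log2 difference was -0.038 (SE 0.021), with 7 of the 9 differences below 0, and it was -0.059 without sham rat 1 and -0.025 without sham rat 2. For each of RT1-EC2, RT1-CE10 and RT1-CE12, sham rat 1 thus lay with the MCAO rats, and sham rats 2 and 3 lay apart from both.

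RT1-CE5, which lies near RT1-CE10 in the reference, had 5 probe sets of its own, and their ranges ran from 1.08e-05 to 0.000646. The widest, the _at probe set, had values of 5.5064, 5.5063 and 5.5066 in the MCAO rats, against 5.5064, 5.5070 and 5.5069 in the sham rats. Its order over the rats was that of RT1-CE10, with sham rats 2 and 3 the highest, at a log2 difference of -0.00032 (SE 0.00020). At the _a_at probe set and at the narrower of the _x_at probe sets all MCAO rats lay below all sham rats, by log2 differences of -4.99e-06 and -1.53e-05, which turned to 2.48e-05 and 1.44e-05 with arrays centred on their medians. These were the 2 separated probe sets of the 15, against 3.6% of all probe sets with the MCAO group below and 4.82% with it above, where none of the 15 lay. At the _s_at probe set and the wider _x_at probe set the groups overlapped.

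The classical genes RT1-A1 and RT1-A2 were covered by shared probe sets alone, and those varied little. The probe set annotated to both genes ranged over 4.30e-05, with a log2 difference of 1.39e-05 (SE 1.34e-05). The probe set shared by RT1-A2 and RT1-A3 had a log2 difference of -9.68e-05 (SE 7.26e-05), and that shared by RT1-A, RT1-CE16 and RT1-A1 had 4.34e-07 (SE 3.50e-06). A further shared probe set is annotated to RT1-A and several CE genes, RT1-CE5 among them, but to neither RT1-A1 nor RT1-A2. It had 1.87e-07 (SE 5.30e-06). No call was made at these, and no gene is named from them. Over all 15 the median log2 difference was -4.99e-06, against 6.72e-08 over all probe sets, and 9 of the 15 had the lower mean in the MCAO group.

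Correlations between probe sets were computed for the 105 pairs of the 15 over the 6 rats. Pearson's r was at least 0.9 in 9 pairs, or 8.57%, against 1.19% of all pairs of probe sets on the array. All 9 lay among RT1-EC2, RT1-CE10, RT1-CE12 and 2 RT1-CE5 probe sets (the _at and the narrower _x_at), and the remaining pair of these, both of RT1-CE5, had an r of 0.86. One pair, RT1-T24-4 and the _a_at probe set of RT1-CE5, had an r of -0.94 (0.952%, against 1.07% of all pairs at -0.9 or below). Its rho was -0.43, and r was 0.81 without MCAO rat 3 and sham rat 3, on which it rested. These probe sets share the rats and the arrays, and they were chosen with their values known.

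The high correlations of RT1-EC2 rested on sham rats 2 and 3. RT1-EC2 and RT1-CE10 had an r of 0.995 and a rho of 0.66, and r was -0.41 over the other 4 rats. For RT1-EC2 and RT1-CE12 r was 0.98, rho 0.60 and r over the other 4 rats -0.24. RT1-CE10 and RT1-CE12 had an r of 0.99 and a rho of 0.94, with an r of 0.73 over the other 4 rats. RT1-CE12 and the _at probe set of RT1-CE5 were alike also among these 4, with an r of 0.99 over all rats, a rho of 0.94 and an r of 0.98 without sham rats 2 and 3. Taking deviations from the group means gave 0.99 for RT1-EC2 with RT1-CE10 and 0.98 for RT1-CE10 with RT1-CE12, where sham rat 1 again lay apart from sham rats 2 and 3. RT1-T24-4 did not follow them, with an r of -0.60 to RT1-EC2.

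**Figure D3:**
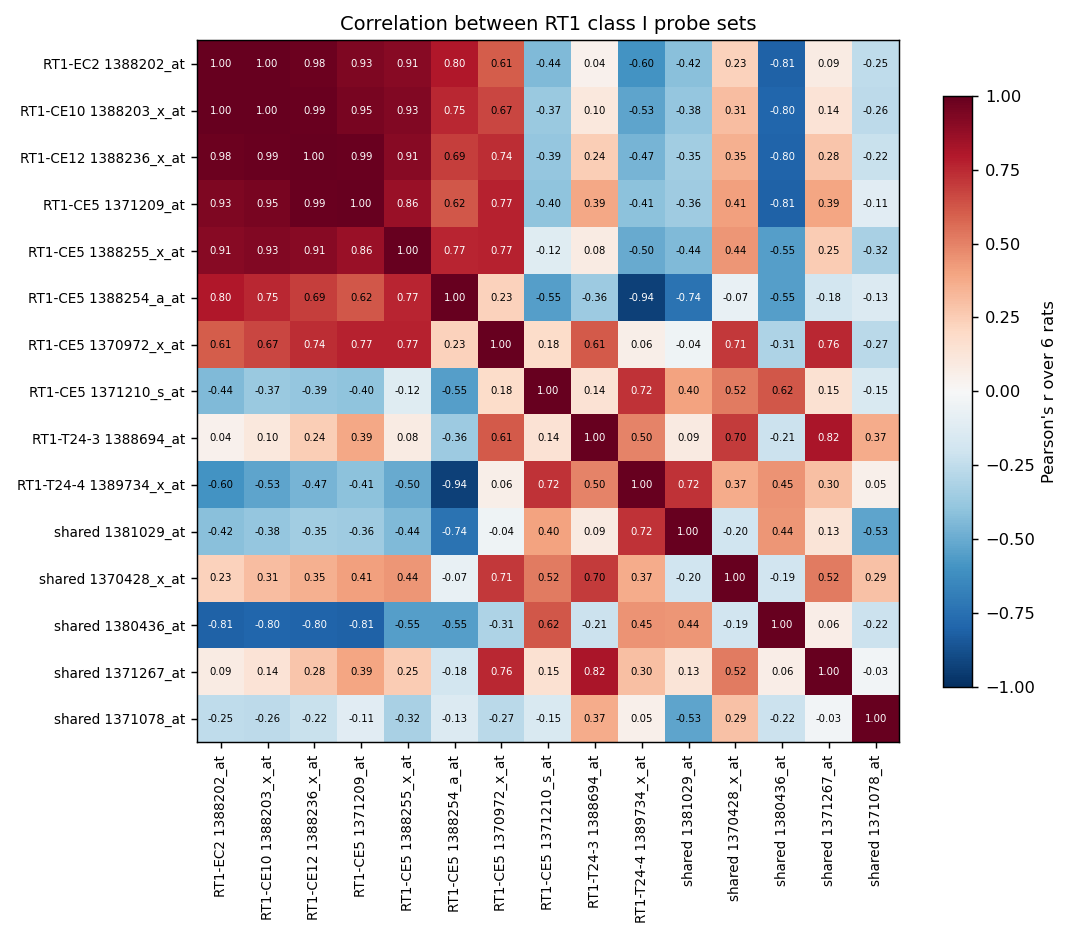
Pearson's r over the 6 rats for each pair of the 15 RT1 class I probe sets (colour and printed value, from -1 to 1; "shared" marks probe sets annotated to several genes). The block at the upper left holds the 9 pairs with r of at least 0.9, and RT1-T24-4 stands outside it with r of -0.60 to RT1-EC2.

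The order of the rats was compared with other probe sets. Sham rats 2 and 3 were the highest in 6 of the 15 probe sets, against 8.59% of all. Among the 168 probe sets with a range of at least 0.01 they were the highest in 49 (29.2%) and the lowest in 13 (7.74%). The count of 49 took any gap and any place of sham rat 1. It says only that these 2 rats were the highest in many wide probe sets outside class I. Of the 151 probe sets with 1 symbol from RT1-M2 to RT1-A1 on chromosome 20, 9 had a range of at least 0.01. Besides 4 of the class I genes they were Hspa1a, the inducible Hsp70, in which sham rats 2 and 3 were the lowest, and 4 probe sets of class II genes, in 3 of which these rats were the highest.

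For RT1-EC2 the most similar probe sets with 1 symbol and a range of at least 0.01 were RT1-CE10, the _x_at probe set of RT1-Ba and RT1-CE12, with r of 0.995, 0.99 and 0.98, and 5 of 137 reached 0.9. RT1-Ba, the alpha chain of a class II molecule, had values of 6.581, 6.578 and 6.579 in the MCAO rats, against 6.580, 6.617 and 6.623 in the sham rats at this probe set. It thus showed the same division of the sham group. The RT1-Ba probe set with the highest mean had 7.552, 7.576 and 7.584 in the MCAO rats, against 7.579, 7.572 and 7.573 in the sham rats, so that the division was seen at only some probe sets of the gene. For RT1-CE10 the most similar were RT1-CE12, the same RT1-Ba probe set and Cd36, a scavenger receptor, with r of 0.99, 0.98 and 0.90, and 3 of 136 reached 0.9.

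**Figure D4:**
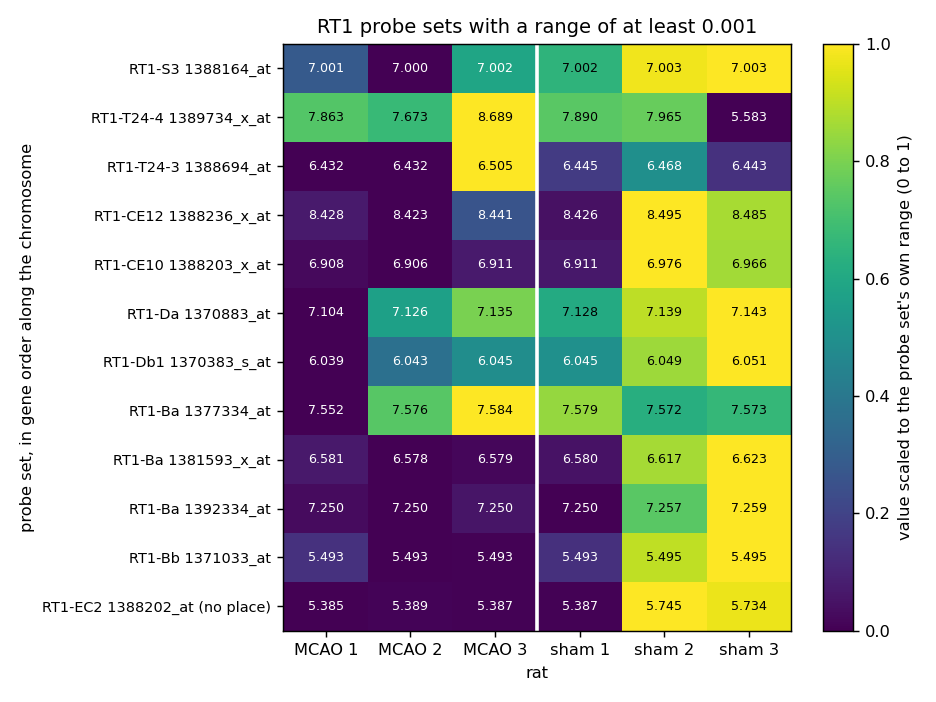
The RT1 probe sets of class I and class II with a range of at least 0.001, in gene order along the chromosome (rows, with RT1-EC2, which was not matched to the reference by symbol, at the bottom), in the MCAO rats and the sham rats (columns); colour gives the value scaled to the probe set's own range and the printed number the log2 value on the DFW scale. Sham rats 2 and 3 are bright for RT1-CE12, RT1-CE10, RT1-EC2 and most class II probe sets, and not for RT1-T24-4, RT1-T24-3 and the uppermost RT1-Ba row.

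The 3 probe sets most like RT1-T24-3 over the rats were those of Isg15, a ubiquitin-like protein induced by interferon, Mpeg1, a pore-forming protein of macrophages, and Slfn4, a Schlafen family gene, with r of 0.97, 0.96 and 0.96, and 19 of 136 reached 0.9. Isg15 had values of 6.232, 6.223 and 6.264 in the MCAO rats, against 6.231, 6.242 and 6.234 in the sham rats. As for RT1-T24-3, MCAO rat 3 was the highest and sham rat 2 the next, and the groups overlapped. Slfn4 had values of 7.691, 7.697 and 7.769 in the MCAO rats, against 7.721, 7.747 and 7.720 in the sham rats, again with these 2 rats on top. For RT1-T24-4 none of the 136 probe sets compared reached an r of 0.9. The 3 closest were Dnaja1, Hsp90ab1 and Hsph1, chaperones or co-chaperones of the heat shock response, with r of only 0.64, 0.61 and 0.57. Spearman's rho was 0.31 for each, and sham rat 3, which sets RT1-T24-4 apart, was the lowest in all 3. In 5 of 136, r lay at -0.9 or below.

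**Figure D5:**
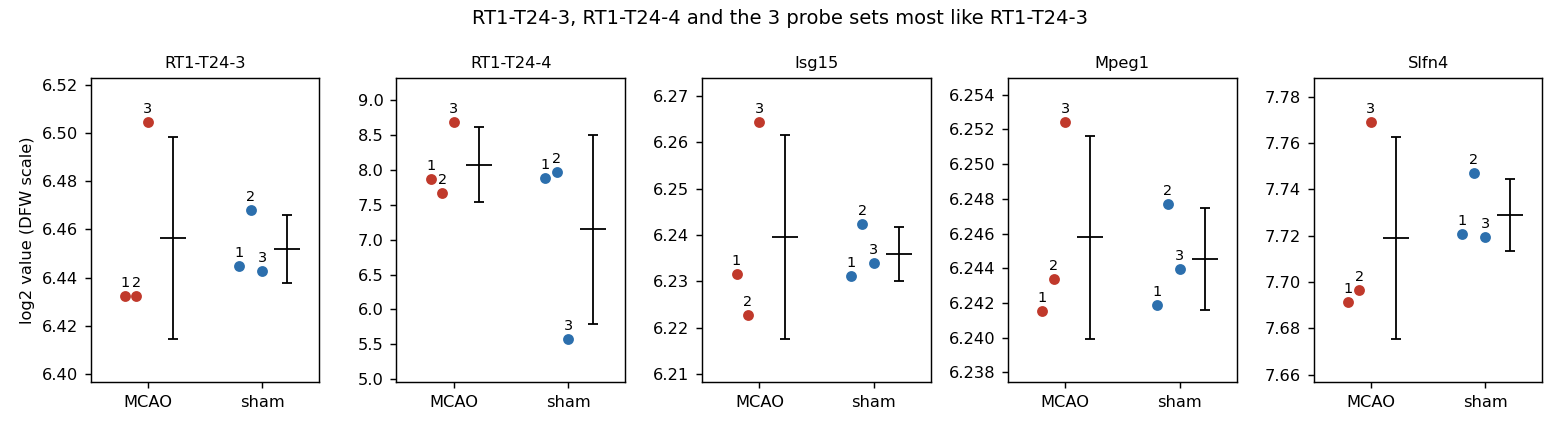
Log2 values (DFW scale, y axis) of RT1-T24-3, RT1-T24-4 and the 3 probe sets most like RT1-T24-3 in the MCAO rats and the sham rats, where digits give the rat's number and bars the group mean with its SD (n = 3); each panel has its own y axis, cut above 0. MCAO rat 3 is the highest in every panel, and sham rat 3 is low only for RT1-T24-4.

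Other class I probe sets of the array were set beside the 15 under study. Their median range was 4.00e-05, against 8.40e-05 for the 15. The rule drew on the spread between arrays, so nothing is read from the comparison of ranges. None of the 12 other class I probe sets had a range of at least 0.01, and 1 was called lower in the MCAO group (0.612% of all probe sets) and none higher (0.135%). This was RT1-S3 at its _at probe set, a nonclassical gene next to RT1-T24-4 in the reference, with values of 7.0009, 7.0002 and 7.0016 in the MCAO rats, against 7.0018, 7.0026 and 7.0027 in the sham rats. All MCAO rats lay below all sham rats, as in 3.6% of all probe sets, and sham rats 2 and 3 were the highest, with a log2 difference of -0.0014 (SE 0.00047). At the other 3 RT1-S3 probe sets the groups overlapped. The probe set of RT1-A had the next largest range, 0.00031.

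Genes that load, regulate or recognise class I molecules were not used in choosing the RT1 genes, and none of them was called. Their lists were, however, chosen with earlier results of these data known. In 5 lists, peptide loading, immunoproteasome, class I regulators, receptors for class I and class I-like molecules, 49 of 66 genes were measured. Rank Products called 0 of the 49, against 0.612% of all probe sets called lower and 0.135% higher. limma called 0 after adjustment, as it called 0 of all probe sets, so this count says nothing about the lists. Of the 49, 2 (4.08%) had an unadjusted limma p under 0.05, near the 3.7% of all probe sets. In 35 of the 49 the MCAO rats had the lower mean, with a median log2 difference of -8.65e-06 against 6.72e-08 over all probe sets. The Rank Products count of 0 lies near the share called over all probe sets, so nothing is read from it. The largest range among these genes was 0.015.

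Of the 10 measured genes of peptide loading, Calr, the chaperone calreticulin, had the largest log2 difference, -0.00020 (SE 0.00019), followed by Erap1, a peptidase that trims peptides, with -0.00014 (SE 0.00013). B2m, which encodes the light chain of class I and was named for this role, had values of 13.185719, 13.185719 and 13.185724 in the MCAO rats, against 13.185719, 13.185720 and 13.185720 in the sham rats, so that all rats lay within 5.67e-06. All 7 measured genes of the immunoproteasome list had the lower mean in the MCAO group, with -0.0017 (SE 0.0013, exact permutation p = 0.2) for Psme1, a proteasome activator, and -0.00015 (SE 0.00021, exact p = 0.6) for Psmb8, a catalytic subunit induced by interferon.

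Among 19 regulators of class I, Ifngr1, a chain of the interferon gamma receptor, had -0.00057 (SE 0.0014) and Irf2, an interferon regulatory factor, had -0.00037 (SE 0.00033), with exact p of 0.9 and 0.4. Among 7 receptors, Lilrb4, an inhibitory receptor of myeloid cells, had 0.0020 (SE 0.0042) and Klrd1, the CD94 chain of NK cell receptors, -0.00031 (SE 0.00077), with exact p of 0.8 for each. Among 6 class I-like molecules, Procr, the protein C receptor, had -0.00040 (SE 0.00015, exact p = 0.1), with the MCAO group wholly below the sham group, as in 3.6% of all probe sets. Azgp1, a soluble class I-like protein, had -1.04e-06 (SE 2.16e-06, exact p = 0.7). With 3 rats against 3 the exact two-sided permutation test cannot go below 0.1.

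Of 17 interferon-induced genes, 1 was called lower, 1 higher and 15 not. Rsad2, an antiviral enzyme, was called lower with a log2 difference of -0.0021 (SE 0.00065, exact p = 0.1), with the MCAO group wholly below the sham group, as in 3.6% of all probe sets. Ifi27 was called higher with 0.062 (SE 0.086, exact p = 0.8), where MCAO rat 3 lay at 6.181 and the other MCAO rats at 5.944 and 5.898, against 5.918, 5.993 and 5.926 in the sham rats. Isg15 was not called, with 0.0038 (SE 0.012, exact p = 0.9). Of 8 class II genes, Cd74, the invariant chain, RT1-Da and RT1-Db1, a class II alpha and beta chain, were called lower with -0.021 (SE 0.012), -0.015 (SE 0.0095) and -0.0059 (SE 0.0023), and none was called higher. RT1-Ba was not called at the probe set that represents it here, but its _x_at probe set was called lower with -0.028 (SE 0.013). Over all 7 lists, 4 of the 74 genes were called lower, 1 higher and 69 not, against 0.612% of all probe sets called lower and 0.135% higher. Without sham rat 3 no gene of these lists was called, and without MCAO rat 3 10 were.

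Cell type markers were set beside these values. Of all probe sets, 0.612% were called lower and 0.135% higher. The summed linear level of 7 measured B cell markers was 600.5, 601.4 and 601.4 in the MCAO rats, against 601.5, 602.1 and 602.3 in the sham rats, and 3 of the 7 were called lower. Of 12 T cell markers 2 were called lower, with sums of 1058 to 1060 in the MCAO rats and 1060 to 1061 in the sham rats, which overlapped. The sum of 6 erythroid markers was 30782 to 30783 in the MCAO rats and 30782 to 30786 in the sham rats. Sham rats 2 and 3 had the highest sums for B cell, T cell and erythroid markers, as they had the highest values of RT1-EC2, RT1-CE10 and RT1-CE12. This did not hold for the other cell types. MCAO rat 3 had the highest sum for neutrophil, monocyte, platelet and brain markers. For NK cell markers sham rat 2 (395.9) and MCAO rat 3 (395.7) had the highest sums. Of 7 NK cell markers 1 was called lower, of 10 neutrophil markers 1 lower and 1 higher, of 8 monocyte markers 1 lower and of the erythroid markers 1 lower, and no platelet or brain marker was called. The neutrophil marker called lower was S100a9, although its log2 difference of 0.0027 (SE 0.028) was above 0, with MCAO rat 3 the highest at 9.124. The neutrophil sum was 1220 to 1274 in the MCAO rats and 1238 to 1248 in the sham rats. Their part in the RT1 values was not tested. Hbb, a haemoglobin chain that marks blood, lay at 14.21 in every rat. The values carry no label of the rats' RT1 alleles, and whether the on/off patterns reflect allele differences between the rats was not tested.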

How the data were processed

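Whole-blood RNA of 3 MCAO and 3 sham rats was measured on 1 array per rat. The authors summarised the 6 arrays jointly by DFW in R. The deposited log2 values number 1 per probe set and rat. Their log base is not stated and was inferred from their span of 4.93 to 14.43. Precision is limited by the number of arrays. The values were used as they are, without the 57 control probe sets. Array medians lay between 5.56433 and 5.5644.

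Rank Products, the method of the study, was run in Python 3.11.15 with numpy 2.4.6, pandas 2.3.3 and scipy 1.17.1 on all 9 MCAO-sham pairs, with 100 permutations of the probe sets within arrays and an FDR under 0.05 over all 31042 probe sets. limma 3.58.1 in R 4.3.3 gave differences (MCAO minus sham) and SEs. Rank Products was tried on simulated data with an equal SD for every probe set. The deposited values have very unequal spreads, so that trial does not cover calls at wide probe sets. limma was tried on simulated data with each probe set's own SD. Symbols came from the array annotation (20826 probe sets with 1 symbol, 436 with several, 9780 with none), with each list gene represented by its probe set with the highest mean. Promoters (RefSeq, GRCr8) were aligned globally with Biopython 1.88.

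The RT1 genes and the gene lists were chosen with earlier results of these data known. Named were every RT1 probe set under study, per list the called genes and the 2 with the largest difference, of other class I genes the called ones and the 2 with the largest range, and the 3 most similar probe sets for RT1-T24-4, RT1-EC2, RT1-CE10 and RT1-T24-3. B2m, Ctrb1, Hspa1a, Hbb, S100a9 and a further RT1-Ba probe set were named outside this rule. The alternatives were limma calls, blocks of same-numbered rats, a stricter FDR (0.01), the brighter probe sets alone, control probe sets included, quantile normalization, centring on the array median, other thresholds and coefficients, another probe set per gene and leaving out each rat. Leaving out sham rats 2 and 3 together was added after the data were seen.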

Additional observations from a re-analysis of the deposited data

How the results depend on the processing

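The number of RT1 class I probe sets called by Rank Products was 5 and ran from 0 to 5 when 1 rat was left out. It was 0 without sham rat 3, and 2 without sham rat 2. With limma it was 0, and without both sham rats 2 and 3, which was chosen after seeing the data, also 0. It was 4 at an FDR under 0.01, where RT1-T24-3 dropped out, and 4 among the brighter probe sets, where RT1-EC2 did. It was 6 after quantile normalization, which added the probe set shared by RT1-A2 and RT1-A3 as higher. The number of pathway genes called was 5 and ran from 0 to 10 when 1 rat was left out, with 0 without sham rat 3, 2 without sham rat 2, 3 without sham rat 1 and 10 without MCAO rat 3. It was 0 with limma, 3 at an FDR under 0.01 and 2 without sham rats 2 and 3. All probe sets called numbered 232, and 62 to 355 when 1 rat was left out, 124 after quantile normalization, 73 at an FDR under 0.01, 110 among the brighter probe sets and 0 with limma, where 1150 had an unadjusted p under 0.05, of which 1 was an RT1 class I probe set. Centring left Rank Products unchanged by construction. The split pattern was seen in 2 probe sets and in 4 with a minimum range of 0.05. Pairs with a coefficient of at least 0.9 numbered 9, and 5 with Spearman's rho. The difference of RT1-T24-3 ran from -0.020 (without MCAO rat 3) to 0.017 (without MCAO rat 2) when 1 rat was left out, and was -0.00011 without sham rat 3. The causes were not tested, and no alternative moved the difference of RT1-EC2, RT1-CE10, RT1-CE12 or RT1-T24-4 to the other side of 0. Of the comparisons of single differences, 117 moved by less than the spread, 16 moved further, on centring or quantile normalization (8 of these changed sign, at probe sets that were not called on the deposited values, 1 of them the probe set called higher after quantile normalization), and the 2 of RT1-T24-3 turned.

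Same-numbered rats correlated at 0.215, 0.040 and 0.063 in their deviations from the group means, and different-numbered rats at -0.24 to 0.17. The labels do not say whether same-numbered rats were handled together, and with 3 rats per group these values cannot decide it. With numbers as a replicate block, all calls rose to 364, the pathway genes called to 8, and the RT1 class I calls stayed at 5, with RT1-T24-4 called lower in the MCAO group.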
